A study of Mus musculus with 48 samples.

Results

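The comparison of full with partial loss of *Tph2* in mice reared without stress rested on 16 of the 48 mice of the study, 8 *Tph2*-/- control mice (*Tph2*-/- C) and 8 *Tph2*+/- control mice (*Tph2*+/- C). Both groups were chosen by the genotype and rearing given for each mouse. The 16 mice were male C57BL/6 animals aged 4 months, from a line backcrossed on C57BL/6N, born to *Tph2*+/- parents, left with their dams, housed singly after weaning and tested for behavior before the tissue was taken. The other mice were *Tph2*+/+ controls and mice of the 3 genotypes exposed to maternal separation (MS), in which pups were removed from the dam for 3 h on each day from postnatal day 2 to day 15. The *Tph2*-/- mice lacked the gene in all cells from conception, so that effects during development and in the adult cannot be told apart, and *Tph2*+/- mice carried 1 intact copy and are not a wild-type control. RNA was extracted from a portion of the pooled amygdala powder of both hemispheres of each mouse, and fewer cells of a type and less RNA per cell cannot be told apart in it. Of the 48440 genes in the count table, 5704 reached a mean of at least 10 counts over the 16 libraries and are described here.

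Tryptophan hydroxylase 2 (TPH2) carries out the rate-limiting step in the synthesis of serotonin (5-HT) in neurons. It is made in the raphe nuclei of the brainstem, whose axons reach the amygdala densely, while the cell bodies and thus most of the *Tph2* mRNA remain in the brainstem. The amygdala takes part in fear, anxiety and social behavior, and holds receptors for 5-HT of several families.

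Few read pairs fell on genes. Without *Lars2* and Gm42418, which took up most of the counts in 1 library of each group, the counts on genes ranged from 449780 to 868469 in *Tph2*+/- C and from 611412 to 788392 in *Tph2*-/- C, and a median of 97.4% of the uniquely mapped read pairs in each group fell on no gene. A count of 3, used as the floor, was worth between 3.45 and 6.67 CPM (counts scaled to library size), and this covers counting error only. The CPM of genes given below also include a normalization factor for each library. With it, 3 counts were 3.47 CPM in *Tph2*+/- C replicate 3 and 7.49 CPM in replicate 2. Gm42418, which overlaps ribosomal RNA, had 4492836 counts in *Tph2*+/- C replicate 2 and 903823 in *Tph2*-/- C replicate 1. Many of the counted genes lie opposite to a gene known to be abundant in brain, while the abundant genes were themselves low, with a mean of 7.81 counts for *Actb* and 57.1 for *Gapdh*. The library kit marks the strand, but the strand setting of the counting is not given in the sources used here. If it was opposite to that of the kit, the counts of a gene are reads of the other strand, and values given below under names such as *Jund*, *Ina*, *Grin3b*, *Mgme1* or *Nefh* would not measure the mRNA of that gene. For each DEG described, the genes with overlapping exons on the opposite strand are therefore named.

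*Tph2* had 0 counts in each of the 16 libraries, as did *Gch1*, so the amygdala counts could not check the genotype labels. Among the 26 genes of the 5-HT system, 3 reached the minimum mean count and 0 were called different, where 2.73% of all genes tested were called in either direction by the rule given below. The 5-HT receptor gene *Htr1b* had a log2 fold change (lg2FC) of -0.32 ± 0.14 (SE) and an adjusted p of 0.544 in the edgeR fit across all genes. The receptor gene *Htr2b* had a lg2FC of 0.08 ± 0.09, and *Slc18a2*, the vesicular transporter of monoamines, had 0.07 ± 0.16. The other receptor genes were below the minimum, with means of 5.25 counts for *Htr2a* and 3.69 for *Htr1a*, and are not described further. The 8 libraries of a group held 35 counts of *Htr2a* in *Tph2*+/- C and 49 in *Tph2*-/- C.

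Genes counted as differentially expressed (DEGs) where the edgeR quasi-likelihood fit gave an unadjusted p under 0.01 together with a lg2FC beyond 0.2 in either direction. Both thresholds are those of the study, which used them on a DESeq2 fit of all genes with counts and not on the fit and gene set used here. By this rule 21 genes were higher in *Tph2*-/- C (0.368% of the 5704 tested) and 135 were lower (2.37%), so that 86.5% of the DEGs were lower in the mice without TPH2. The lower genes had a median lg2FC of -0.64 and the higher genes one of 0.52, against 0.01 over all genes tested. In none of the genes was the adjusted p below 0.05 (0%), with a smallest value of 0.148 in edgeR and 0.114 in DESeq2. At a nominal p below 0.05 there were 447 genes in edgeR and 418 in DESeq2. The groups of 8 overlapped in every gene tested, in both directions (0% apart).

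**Figure D1:**
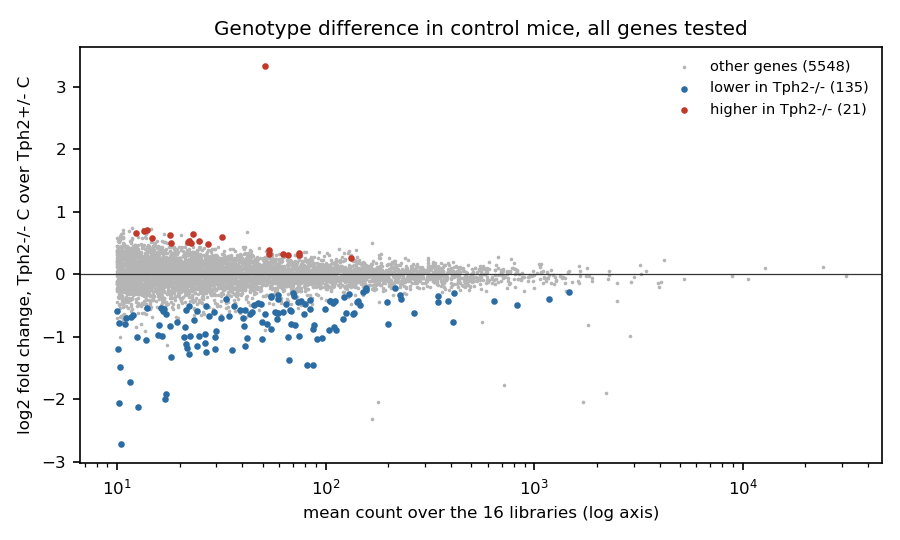
Log2 fold change of each of the 5704 genes tested, *Tph2*-/- C over *Tph2*+/- C, against the mean count over the 16 libraries on a log axis. The 135 DEGs lower in *Tph2*-/- C lie between -2.72 and -0.21 and the 21 higher DEGs between 0.26 and 3.33 (*Parpbp*), and in both directions the DEGs nearest 0 lie among genes that were not called.

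The lower genes were mostly transcripts that run opposite to another gene. Exons on the opposite strand were annotated for 122 of the 135 lower DEGs (90.4%), for 8 of the 21 higher DEGs (38.1%) and for 63.4% of all genes tested. By annotated type, 47 of 1179 antisense transcripts were called lower (3.99%), against 53 of 3138 protein-coding genes (1.69%) and 5 of 271 long intergenic RNAs (1.85%). Among the higher genes 16 were protein-coding (0.51% of 3138) and 1 was antisense (0.085% of 1179), against 0.368% of all genes tested.

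The sequence of the genes also differed between both directions. The G+C content of the longest annotated transcript had a median of 55.2% in the lower DEGs, 43.4% in the higher DEGs and 48.7% in all genes tested. To show this, 100 exon bases that lie in no exon of another gene are given for the non-coding transcripts Zbtb11os1 and Kcnmb4os2, both lower in *Tph2*-/- C, and for Gm44853 and Gm44012, both higher. Capitals mark G and C. The stretches are at chr16:55974518-55974617 (minus strand), chr10:116473879-116473978 (plus), chr7:57719062-57719161 (minus) and chr6:84922675-84922774 (plus) of GRCm38, and hold 74, 83, 44 and 48 G or C bases. The whole transcripts have a G+C content of 65.0%, 65.5%, 36.4% and 43.4%, so that each stretch is richer in G+C than its transcript.
Zbtb11os1: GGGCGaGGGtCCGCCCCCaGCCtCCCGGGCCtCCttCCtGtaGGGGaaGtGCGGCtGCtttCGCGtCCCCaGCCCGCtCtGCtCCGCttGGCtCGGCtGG
Kcnmb4os2: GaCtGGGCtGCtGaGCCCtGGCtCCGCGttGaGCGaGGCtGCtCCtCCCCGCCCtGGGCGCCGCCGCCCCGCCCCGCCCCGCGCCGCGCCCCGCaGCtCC
Gm44853: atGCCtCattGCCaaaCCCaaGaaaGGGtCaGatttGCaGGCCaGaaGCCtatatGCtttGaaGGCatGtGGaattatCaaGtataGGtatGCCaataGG
Gm44012: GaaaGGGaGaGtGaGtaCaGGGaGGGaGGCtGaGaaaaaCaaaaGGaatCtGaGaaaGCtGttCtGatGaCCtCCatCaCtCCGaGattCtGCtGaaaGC

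Across all genes with a known transcript, sorted into 8 bins of equal size by G+C content, the median lg2FC declined from 0.10 in the bin poorest in G+C to -0.10 in the richest. Of the 711 genes in the richest bin 48 were called lower (6.75%) and 0 higher, and of the 711 in the poorest bin 8 were called lower (1.13%) and 7 higher (0.985%). The Spearman correlation between G+C content and lg2FC was -0.36 across 5682 genes, which share their libraries and are not independent replicates. In the MS mice, which are other animals, it was 0.02. The libraries themselves differed in this respect. The slope of log2 CPM on G+C content ranged from -0.21 to 0.07 per 10 percentage points in *Tph2*-/- C and from -0.06 to 0.17 in *Tph2*+/- C. The part of this slope in the genotype difference was examined by an offset for G+C content, chosen after seeing the data, which left 115 lower and 22 higher DEGs, among them 110 of the 135 lower and 13 of the 21 higher ones.

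**Figure D2:**
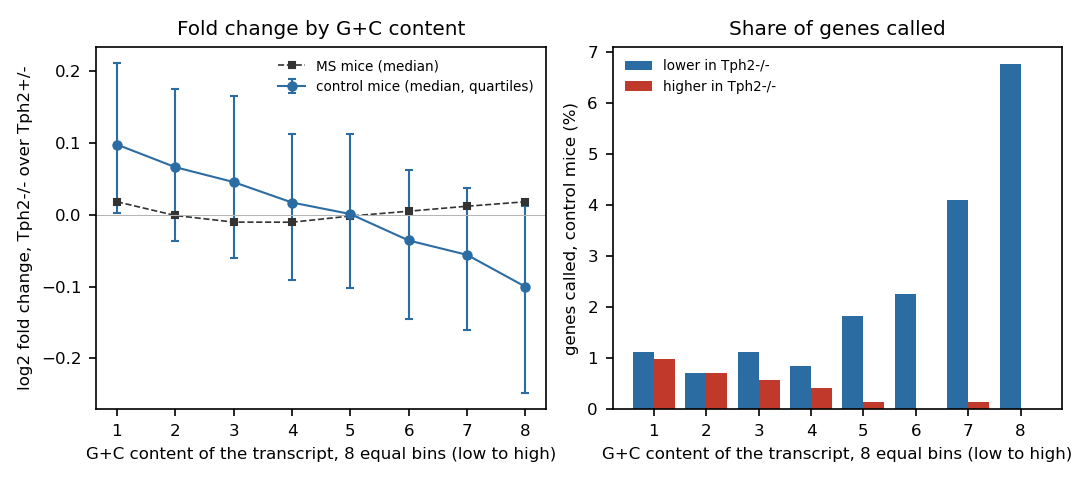
Left, median log2 fold change of *Tph2*-/- over *Tph2*+/- in 8 bins of transcript G+C content, with quartiles over genes for control mice and the median alone for MS mice. Right, the share of genes called in each bin in control mice, which for lower genes reaches 6.75% in the richest bin.

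Among the lower genes with the smallest p was *Elp5*, a subunit of the Elongator complex that modifies transfer RNA. It is at chr11:69968222-69982517 on the minus strand of GRCm38, with 70 exon bases opposite to *Ctdnep1*, and also overlaps Gm44349 on that strand. *Elp5* ranged from 48.2 to 87.2 CPM with a median of 68.1 in *Tph2*+/- C, and from 38.3 to 61.8 CPM with a median of 42.3 in *Tph2*-/- C. Its lg2FC was -0.57 ± 0.13, with an adjusted p of 0.148 in edgeR and a two-sided exact permutation p of 0.000932. Of the 8 *Tph2*+/- C libraries 6 lay above all *Tph2*-/- C libraries. The median in *Tph2*+/+ C was 53.3 CPM, between both groups.

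*Nefh*, the heavy chain of the neurofilaments that fill large axons, is the lower gene with the smallest p that has no annotated exon on the other strand. It lies at chr11:4938754-4948064 on the minus strand. *Nefh* ranged from 35.8 to 135 CPM with a median of 59.0 in *Tph2*+/- C, and from 22.0 to 37.7 CPM with a median of 31.3 in *Tph2*-/- C. This was a lg2FC of -1.21 ± 0.31 in edgeR with an adjusted p of 0.167. The difference came with a wide spread in the heterozygous mice, of which 6 lay above the highest *Tph2*-/- C library. Of the other neuronal intermediate filament genes, *Ina*, which codes for alpha-internexin, was also called lower, with a lg2FC of -0.76 ± 0.23 and an adjusted p of 0.247 in edgeR. *Nefm* had a lg2FC of -0.13 ± 0.09 and *Nefl*, on the other strand of the same stretch, had 0.21 ± 0.23, with adjusted p of 0.777 and 0.879 in edgeR. *Ina*, *Nefm* and *Nefl* were looked up after the value of *Nefh* was known.

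Several lower genes had few counts in *Tph2*-/- C, and *Mgme1* and Gm9887 among them reached the minimum mean count only through *Tph2*+/- C. Neither had more than 8 counts in a *Tph2*-/- C library. *Mgme1*, a nuclease that maintains mitochondrial DNA and lies opposite to *Snx5*, ranged from 3.88 to 45.3 CPM with a median of 22.9 in *Tph2*+/- C and from 2.58 to 10.6 CPM with a median of 4.28 in *Tph2*-/- C. Its lg2FC was -2.05 ± 0.51 in edgeR with an adjusted p of 0.148. The *Tph2*-/- C median was at about the level of 3 counts, and 6 heterozygous libraries lay above all knockout libraries. *Rgp1*, part of the exchange factor of the Golgi GTPase RAB6A, had a median of 32.9 CPM in *Tph2*+/- C and 9.42 in *Tph2*-/- C and a lg2FC of -1.91 ± 0.50 in edgeR (adjusted p = 0.167). Its exons overlap *Msmp* and *Gba2* on the other strand. The predicted gene Gm9887, opposite to *Arf6*, had the lowest lg2FC of the DEGs, at -2.72 ± 0.68 in edgeR (adjusted p = 0.148), with medians of 19.2 and 2.89 CPM. The *Tph2*-/- C median was 2 counts, below the floor of 3, so that the fitted lg2FC gives no bound, and without the 5 mice of a late animal number range, described below, the lg2FC was -1.66. That of *Rgp1* was then -1.29, and neither gene met the DEG rule.

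*Fgf20*, a fibroblast growth factor that overlaps *Micu3* on the other strand, ranged from 52.5 to 242 CPM with a median of 111 in *Tph2*+/- C, and from 45.7 to 74.6 CPM with a median of 65.0 in *Tph2*-/- C. Its lg2FC was -0.995 ± 0.27 with an adjusted p of 0.171 in edgeR and an exact permutation p of 0.0371. The knockout libraries lay close together, and 5 of the heterozygous libraries lay above all of them while the other 3 fell within the knockout range. The median of 70.5 CPM in *Tph2*+/+ C was near that of the knockout.

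The other lower genes with the smallest p were non-coding transcripts, named here with the gene opposite to them. Gm26798 (opposite *Ppp6r2*, a subunit of protein phosphatase 6) had a lg2FC of -0.88 ± 0.22, with medians of 146 CPM in *Tph2*+/- C and 93.8 in *Tph2*-/- C. 9430041J12Rik (opposite Gm23741 and *Ttyh1*, a membrane protein of neural cells) had -0.62 ± 0.15, with medians of 462 and 298 CPM. Gm35065 (opposite *Prss12*, the synaptic protease neurotrypsin) had -1.20 ± 0.30, with medians of 21.5 and 7.83 CPM. The exact permutation p of these 3, from the same libraries that chose them, was 0.00637, 0.00171 and 0.000777. Gm35065 reached the minimum mean count only through *Tph2*+/- C, with 7 to 21 counts there and 4 to 10 in *Tph2*-/- C. 0610038B21Rik (opposite *Arhgap10*) had a lg2FC of -0.82 ± 0.21, Gm45444 (opposite *Cyth2*, an activator of ARF GTPases) had -0.98 ± 0.25, and Zbtb11os1 (opposite the zinc finger gene *Zbtb11*) had -0.81 ± 0.21. Gm15894 (opposite *Il34*, a ligand that maintains microglia) had -0.72 ± 0.19, and Gm43808 (opposite *Tmem214*) had -0.31 ± 0.08.

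The 14 lower genes with the smallest p had 2-sided exact permutation p between 0.000777 and 0.0371, where 12870 splits of 8 against 8 were possible, and it was above 0.01 for *Rgp1* (0.0199) and *Fgf20*. The permutation test used the libraries that chose the genes and was not adjusted for the number of genes tested, so it adds no independent support. These 14 met the DEG rule with any 1 library left out, but only *Elp5*, Gm35065, 0610038B21Rik and Gm15894 among them did so under all 28 other settings of the fit.

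**Figure D3:**
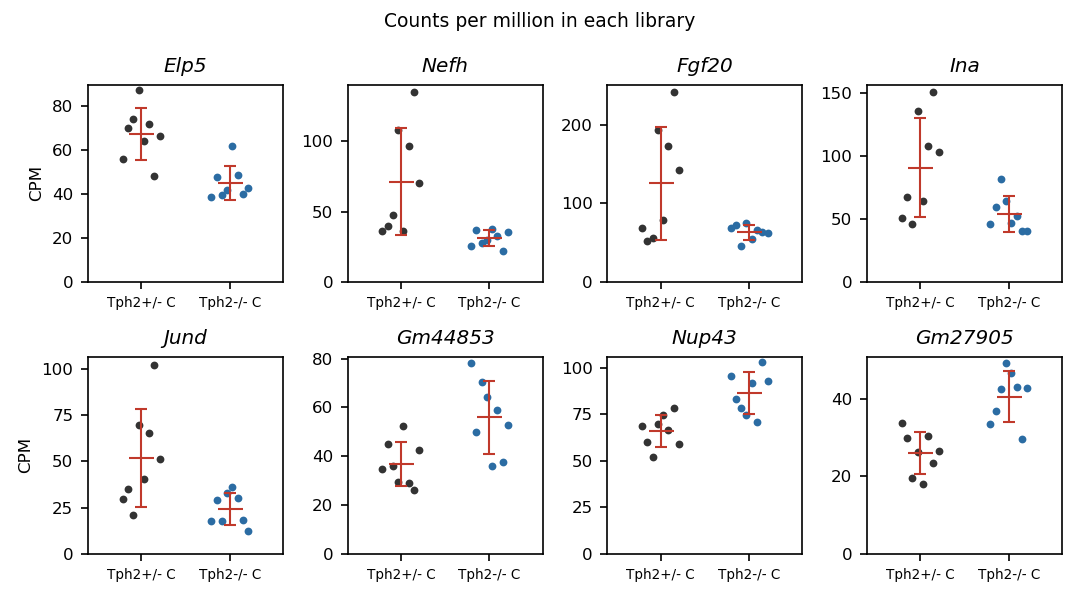
CPM of 8 genes in each of the 8 *Tph2*+/- C and 8 *Tph2*-/- C libraries, with the mean and SD in red. *Elp5*, *Nefh*, *Fgf20*, *Ina* and *Jund* were lower in *Tph2*-/- C, with a wide spread among the heterozygous mice in the last 4, and Gm44853, *Nup43* and Gm27905 were higher.

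Of the 1014 pairs of tested genes that overlap on opposite strands, 52 had one member called and 5 had both members called lower, while 0 had both called higher. These pairs held 1816 genes, of which 3.08% were called in either direction, near the 2.73% of all genes tested. *Jund*, a member of the AP-1 transcription factors, ranged from 20.8 to 102 CPM with a median of 45.9 in *Tph2*+/- C and from 12.6 to 36.2 CPM with a median of 23.6 in *Tph2*-/- C (lg2FC = -1.09 ± 0.34, adjusted p = 0.247 in edgeR). Gm11175, which covers 877 of its exon bases on the other strand, had higher counts, with medians of 636 and 416 CPM, and a lg2FC of -0.77 ± 0.26. In both genes the lowest heterozygous libraries lay within the knockout range. *Ina* was lower together with *Nt5c2*, a nucleotidase of purine metabolism, which had a lg2FC of -1.19 ± 0.38 and also lies opposite to AC122442.1. *Zbtb11* (-0.76 ± 0.28, also opposite *Pcnp*) was lower with Zbtb11os1, and *Cnbd2* (-1.38 ± 0.39, also opposite Gm14252) with *Scand1* (-0.50 ± 0.19). *Aldh5a1*, which degrades the GABA breakdown product succinic semialdehyde, had -1.05 ± 0.35 and was lower with 9330162012Rik (-1.995 ± 0.62). Most of its overlap, 796 exon bases, is with 4932702P03Rik. These pairs were picked after their values were seen. Without *Tph2*+/- C replicate 7 *Jund* (lg2FC = -0.87), *Ina* (-0.61), *Nt5c2*, *Aldh5a1*, *Zbtb11* and Gm11175 missed the DEG rule. So did *Nt5c2*, *Zbtb11*, Gm11175 and *Scand1* without replicate 4, *Aldh5a1* without *Tph2*-/- C replicate 6, and *Zbtb11*, *Scand1* and Gm11175 without any of 9, 9 and 6 libraries in all. In these cases the lg2FC was between -1.04 and -0.97 for *Nt5c2*, -0.78 and -0.61 for *Zbtb11*, -0.52 and -0.41 for *Scand1*, and -0.72 and -0.60 for Gm11175, and was -0.73 and -0.92 for *Aldh5a1* without *Tph2*+/- C replicate 7 and *Tph2*-/- C replicate 6. Without the 5 mice of a late animal number range, described below, none of these 7 genes met the DEG rule. The lg2FC was then -0.25 for *Zbtb11*, -0.34 for Gm11175, -0.39 for *Ina*, -0.53 for *Aldh5a1*, -0.68 for *Jund*, -0.86 for *Nt5c2* and -0.62 for *Scand1*, with p from 0.0123 to 0.437 in edgeR. With the offset for G+C content *Scand1* missed the rule with a lg2FC of -0.26. *Zbtb11* also missed it with a replicate block (-0.76). With the animal number range as a covariate, *Zbtb11* (-0.74) and *Scand1* (-0.49) missed it. The exact permutation p was above 0.01 for *Zbtb11*, *Nt5c2*, *Ina*, *Aldh5a1* and Gm11175, from 0.0253 to 0.0485.

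*Nr1d1*, the circadian repressor REV-ERB alpha, was among the lower genes with the highest counts, with 1906 to 2765 CPM in *Tph2*+/- C and 1463 to 2180 CPM in *Tph2*-/- C. Its lg2FC was -0.29 ± 0.09 with an adjusted p of 0.259 in edgeR, and its exons overlap *Thra* on the other strand. *H2afz*, which codes for the histone variant H2A.Z and has no annotated opposite exons, had a lg2FC of -0.81 ± 0.22 (adjusted p = 0.179 in edgeR). Both were chosen after their values were seen. *Nr1d1* missed the DEG rule without *Tph2*+/- C replicate 4 or *Tph2*-/- C replicate 1, with a lg2FC of -0.24 in both cases, or without the 5 mice of the late number range (-0.25).

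The higher genes were fewer. Gm44853, a processed pseudogene with no exon opposite, ranged from 26.2 to 52.2 CPM with a median of 35.4 in *Tph2*+/- C and from 36.2 to 78.2 CPM with a median of 55.8 in *Tph2*-/- C. Its lg2FC was 0.60 ± 0.15 with an adjusted p of 0.148 in edgeR, and 5 knockout libraries lay above all heterozygous ones. Reads of a processed pseudogene can be shared with its parent gene. *Nup43*, a subunit of the nuclear pore at chr10:7667503-7678881 on the plus strand, ranged from 52.03 to 78.5 CPM with a median of 67.7 in *Tph2*+/- C, and from 70.6 to 103.3 CPM with a median of 87.5 in *Tph2*-/- C. Its lg2FC was 0.38 ± 0.12 in edgeR with an adjusted p of 0.246, and the groups overlapped in a narrow range. The median in *Tph2*+/+ C was 68.0 CPM, next to that of the heterozygous mice.

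A pair of higher genes lay at the Dlx5 and Dlx6 locus of chromosome 6, whose homeobox genes act in the formation of GABAergic neurons of the forebrain. Gm27905, a short RNA at chr6:6821129-6821335 on the plus strand, lies with all its 207 bases opposite to Dlx6os1. It ranged from 17.9 to 33.7 CPM with a median of 26.3 in *Tph2*+/- C, and from 29.7 to 49.3 CPM with a median of 42.6 in *Tph2*-/- C. The lg2FC was 0.65 ± 0.19 in edgeR with an adjusted p of 0.227. *Dlx6* itself had a median of 13.2 CPM in *Tph2*+/- C and 22.6 in *Tph2*-/- C and a lg2FC of 0.65 ± 0.23 (adjusted p = 0.291 in edgeR). In both genes 0 of the 8 knockout libraries fell below the heterozygous median. The same held for most of the 14 higher genes with the smallest p, which were chosen from these libraries. The median of *Dlx6* was 9.5 counts in *Tph2*+/- C, below the minimum set for the mean, and 16 in *Tph2*-/- C. Dlx6os2, opposite to *Dlx6*, had a lg2FC of 0.42 ± 0.28 and was not called (adjusted p = 0.766 in edgeR). *Dlx6* missed the DEG rule without any of 8 libraries, *Tph2*+/- C replicates 1, 3, 4 and 5 and *Tph2*-/- C replicates 1, 3, 4 and 5, with lg2FC between 0.57 and 0.64, or with a replicate block (0.68) or without the 2 libraries richest in Gm42418 (0.61). *Dlx5* and Dlx6os1 were below the minimum mean count.

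*Parpbp*, which codes for a partner of PARP1 and shares 435 exon bases with *Pmch* on the other strand, had the highest lg2FC, at 3.33 ± 0.82, and rested on 1 library. *Tph2*-/- C replicate 7 had 705 counts or 911 CPM, while the other knockout libraries had between 1 and 20 counts, and *Tph2*+/- C replicate 5 had 36. The exact permutation p was 0.597, and without *Tph2*-/- C replicate 7 the lg2FC was -0.25. *Pmch* codes for melanin-concentrating hormone, a peptide of the lateral hypothalamus. Its own counts ranged from 4 to 11 and were 10 in *Tph2*-/- C replicate 7. The summed level of the 13 hypothalamic marker genes found in the count table, of 14 in the list, ranged from 32.5 to 42.6 CPM in *Tph2*+/- C and from 27.5 to 49.01 CPM in *Tph2*-/- C, *Avp* and *Oxt* were at 0 in all 16 libraries, and their part in the value of *Parpbp* was not tested.

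The other higher genes with the smallest p had lg2FC between 0.31 and 0.70. *Rapgef6*, an exchange factor for RAP GTPases, had a lg2FC of 0.70 ± 0.23, Gm44012 had 0.70 ± 0.19, and *Thumpd3*, opposite to Gt(ROSA)26Sor, had 0.62 ± 0.22. *Zrsr1*, a splicing factor gene opposite to *Commd1*, had 0.58 ± 0.18, *Nktr*, a cyclophilin of natural killer cells with 2182 exon bases opposite to E530011L22Rik, had 0.52 ± 0.18, and the pseudogene Tmem181b-ps had 0.50 ± 0.17. *Usp40*, a deubiquitinase that overlaps *Dgkd* on the other strand, had 0.34 ± 0.11, the pseudogene Gm16147 had 0.33 ± 0.11 and *Ermp1*, a protease of the endoplasmic reticulum, had 0.31 ± 0.10. For *Nktr* 7 of 8 knockout libraries lay above the highest heterozygous library, with medians of 27.1 and 37.5 CPM. With 1 library left out, the DEG rule was missed by *Zrsr1* in 2 cases (*Tph2*+/- C replicate 4, *Tph2*-/- C replicate 2), by *Nktr* in 3 (*Tph2*+/- C replicates 4, 5 and 7) and by *Thumpd3* in 7 (*Tph2*+/- C replicates 2, 4 and 6, *Tph2*-/- C replicates 2, 5, 7 and 8). Tmem181b-ps missed it without *Tph2*+/- C replicate 6 or 8 or *Tph2*-/- C replicate 1 or 2, Gm16147 without *Tph2*+/- C replicate 3 or 6 or *Tph2*-/- C replicate 1 or 4, and *Ermp1* without *Tph2*+/- C replicate 6 or 7 or *Tph2*-/- C replicate 2 or 8. The p of these cases ranged up to 0.0217, and the lg2FC was 0.50 for *Zrsr1*, 0.46 to 0.49 for *Nktr*, 0.53 to 0.60 for *Thumpd3*, 0.43 to 0.45 for Tmem181b-ps, 0.27 to 0.31 for Gm16147 and 0.26 to 0.28 for *Ermp1*. With the offset for G+C content the rule was also missed by Gm16147 (lg2FC = 0.20), *Nktr* (0.41), *Ermp1* (0.26) and *Thumpd3* (0.54). *Zrsr1* also missed it with a replicate block (0.60). With the animal number range, described below, as a covariate, *Zrsr1* (0.58) and *Thumpd3* (0.62) missed it. The exact permutation p was 0.0172 for Tmem181b-ps and 0.0269 for *Thumpd3*. Gm44853 and Gm27905 met the DEG rule under all 28 other settings.

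Most genes in the lists of transmitter, hormone, transcription factor and cell type genes were below the minimum mean count. Of the 298 genes in 19 lists, 48 were tested, and their median lg2FC was 0.08. Among these 48, 1 was called lower and 1 higher (2.08% each), against 2.37% and 0.368% of all genes tested. Of the 47 tested genes with exons opposite to a list member, 1 was called lower and 1 higher, with a median of -0.03. The lower list member was *Grin3b*, a subunit of NMDA receptors, with 20.0 to 109 CPM in *Tph2*+/- C and 12.6 to 40.9 CPM in *Tph2*-/- C. Its lg2FC was -1.001 ± 0.34 with an adjusted p of 0.259 in edgeR, it shares 1059 exon bases with *Tmem259*, and it missed the DEG rule without *Tph2*+/- C replicate 7 or 8 or *Tph2*-/- C replicate 8, where the lg2FC was -0.88 to -0.79. Without the 5 mice of a late animal number range, described below, its lg2FC was -0.39 (p = 0.331 in edgeR), and its exact permutation p with all mice was 0.0533. The other 7 tested glutamate receptor genes were not called, nor were the 6 tested genes of GABA synthesis, transport and receptors. The higher member was *Dlx6*, and the genes opposite to a member were *Parpbp* and A830082K12Rik, opposite to Gm46387 and to the cortical patterning gene *Nr2f1*, with a lg2FC of -0.29 ± 0.10. A830082K12Rik missed the DEG rule without *Tph2*+/- C replicate 4 or *Tph2*-/- C replicate 1, 6 or 7, with lg2FC from -0.28 to -0.22, or without the 5 mice (-0.26), and its exact permutation p was 0.0172. The 15 tested genes of the mitochondrial genome had a median lg2FC of 0.05, with 0 called.

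The 12 markers of amygdala excitatory and intercalated cells were low in all libraries, with a summed level of 24.98 to 44.1 CPM in *Tph2*+/- C and 20.7 to 52.3 CPM in *Tph2*-/- C, and 0 of them reached the minimum mean count. The tissue could therefore hardly be checked against its own markers. The sums of the other cell type lists also overlapped between the groups. Oligodendrocyte markers had 561 to 761 CPM in *Tph2*+/- C and 612 to 765 CPM in *Tph2*-/- C, astrocyte markers 66.3 to 184 and 94.1 to 214 CPM, microglia markers 339 to 406 and 339 to 412 CPM, and striatal markers 28.4 to 48.5 and 36.7 to 50.8 CPM.

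As a knockout line can carry variants linked to the targeted locus, genes near *Tph2* on chromosome 10 were examined. Of 21 tested genes that start within 10 Mb, 2 were called lower (9.52%, against 2.37% of all genes tested) and 0 higher, and their median lg2FC was 0.07. Kcnmb4os2 lies opposite to *Kcnmb4*, a subunit of BK potassium channels, and had medians of 183 CPM in *Tph2*+/- C and 133.2 in *Tph2*-/- C (lg2FC = -0.45 ± 0.13, adjusted p = 0.234 in edgeR). Gm26596 lies opposite to *Atxn7l3b* and had medians of 524 and 403 CPM (lg2FC = -0.45 ± 0.15, adjusted p = 0.259 in edgeR). Kcnmb4os2 did not meet the DEG rule with the offset for G+C content (lg2FC = -0.25) or with a replicate block (-0.43), and its exact permutation p was 0.0246. Gm26596 did not without *Tph2*+/- C replicate 6 or 7 (-0.40 and -0.37) or without the 5 mice of the late number range (-0.27), and its exact permutation p was 0.0126.

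The lower genes were high together in the same heterozygous mice. For each library, the median over the 135 lower DEGs of log2 CPM was taken relative to the mean of each gene over the 16 libraries, as a description of the values that chose these genes. It was 0.79 in *Tph2*+/- C replicate 4, 0.61 in replicate 6, 0.85 in replicate 7 and 0.35 in replicate 8, and between -0.23 and 0.04 in the other 4 heterozygous libraries. In *Tph2*-/- C it ranged from -0.50 in replicate 1 to 0.08 in replicate 5. The slope on G+C content was steep in most of the same libraries. It was 0.17, 0.11 and 0.08 per 10 percentage points in *Tph2*+/- C replicates 4, 6 and 7, but -0.06 in replicate 8, and between -0.03 and 0.04 in the other 4. Without *Tph2*+/- C replicate 7 the number of lower DEGs was 64, without replicate 4 it was 72 and without replicate 6 it was 88. High values were also found among mice outside this comparison, with 0.85 and 0.78 in *Tph2*+/+ MS replicates 8 and 7, 0.55 in *Tph2*+/- MS replicate 8, 0.45 in *Tph2*+/+ MS replicate 2 and 0.44 in *Tph2*-/- MS replicate 2. These 5 libraries had slopes between 0.07 and 0.41. Other libraries combined a steep slope with a level near 0. *Tph2*-/- MS replicate 4 had a slope of 0.27 and a level of -0.05, and *Tph2*+/+ C replicate 1 had 0.14 and 0.07. The higher genes showed a more even pattern, with -0.49 to -0.03 in *Tph2*+/- C and 0.09 to 0.35 in *Tph2*-/- C.

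**Figure D4:**
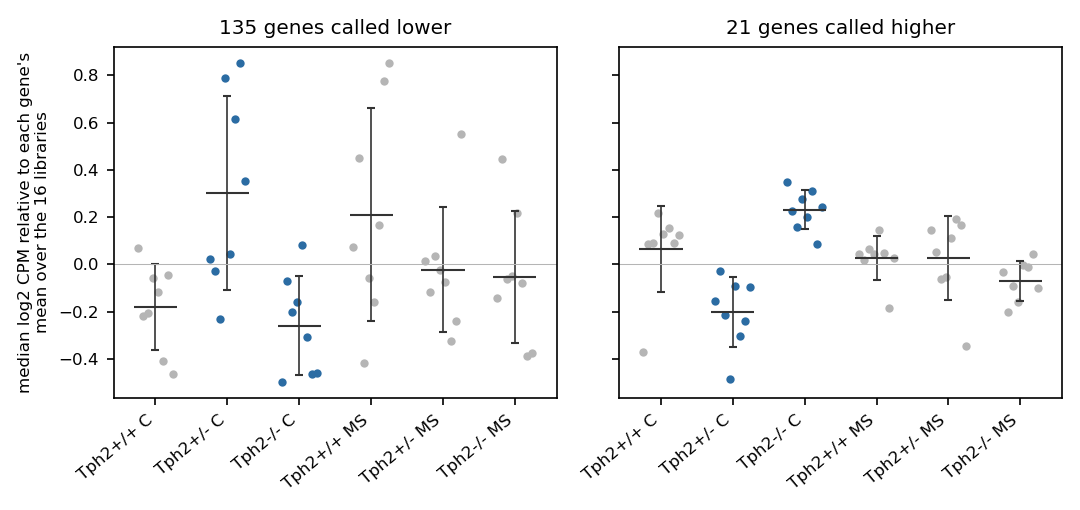
Median over the lower (left) and higher (right) DEGs of log2 CPM relative to each gene's mean over the 16 libraries, 1 point for each mouse, with mean and SD per group; the groups compared are in blue. For lower genes, 4 of the 8 *Tph2*+/- C mice lie between 0.35 and 0.85, and 4 lie near 0 or below.

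Animal numbers given for the 16 mice fell into an early and a late range. In *Tph2*+/- C 2 mice and in *Tph2*-/- C 3 mice had a number in the late range, and what separates the ranges is not stated. Without these 5 mice, 30 genes were called lower and 18 higher, among them 19 of the 135 lower and 8 of the 21 higher DEGs. The median lg2FC of the 135 lower DEGs was then -0.45, and 135 of them kept a negative lg2FC. Of the 14 lower genes with the smallest p 4 met the DEG rule without these mice, with a median lg2FC over the 14 of -0.73 against -0.93 with all mice, and of the 14 higher genes 6 did, with a median of 0.60 against 0.59. With the range as a covariate and all 16 mice kept, 131 genes were called lower and 40 higher, among them 114 of the 135 lower and 13 of the 21 higher DEGs, and 14 of the 14 lower and 11 of the 14 higher genes with the smallest p.

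In *Tph2*+/+ C, which shares no mice with either group, the lower genes were on the median nearer to the knockout than to the heterozygous mice. Over the 135 lower DEGs, the median lg2FC of *Tph2*+/- C over *Tph2*+/+ C was 0.56, and that of *Tph2*-/- C over *Tph2*+/+ C was -0.11. Of the 135 genes 132 were higher in *Tph2*+/- C than in *Tph2*+/+ C, against 2821 of all 5704. Lower in *Tph2*-/- C than in *Tph2*+/+ C were 104 of the 135, against 2942 of all 5704. Gm43808 was among the exceptions to the median, with medians of 208 CPM in *Tph2*+/+ C, 210.1 in *Tph2*+/- C and 169 in *Tph2*-/- C. Over the 21 higher DEGs these medians were -0.30 and 0.16. Both comparisons share mice with the one that chose the genes.

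The same genotypes were compared in the mice exposed to MS, with 8 other animals in each group, fitted with the same spread. Here 10 genes were called higher in *Tph2*-/- (0.175%) and 13 lower (0.228%), and 0 had an adjusted p below 0.05 in edgeR or in DESeq2, with 3.19% and 2.61% of the genes at a nominal p below 0.05. None of the DEGs of the control mice met the DEG rule in MS mice. Of the 135 lower DEGs, 91 had a negative lg2FC in MS mice (67.4%), against 48.9% of all genes tested, but with a median of only -0.03. Of the 21 higher DEGs, 7 had a positive lg2FC in MS mice (33.3%), against 51.1% of all genes. *Elp5* had a lg2FC of -0.17 ± 0.13 in MS mice, *Nefh* -0.21 ± 0.31, *Nup43* -0.16 ± 0.12 and Gm44853 -0.18 ± 0.15.

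The difference between control and MS mice in the genotype effect was tested as an interaction. An adjusted p below 0.05 was found in 0 genes by edgeR, with a smallest value of 0.369, and in 0 genes by DESeq2, and 299 and 251 genes had a nominal p below 0.05. The interaction estimate was -1.001 ± 0.25 for *Zrsr1* (adjusted p = 0.665 in edgeR) and -0.79 ± 0.21 for Gm44853 (adjusted p = 0.808 in edgeR). It was 0.94 ± 0.31 for Gm26798 and 0.996 ± 0.44 for *Nefh*, both with an adjusted p of 0.896 in edgeR.

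**Figure D5:**
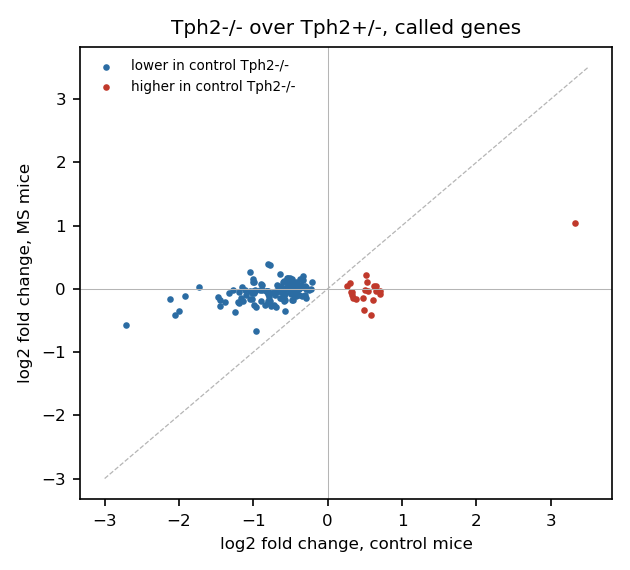
Log2 fold change of *Tph2*-/- over *Tph2*+/- for the DEGs of control mice, in control mice (x axis) and in MS mice (y axis), with the line of equal values dashed. The DEGs, chosen in control mice, lie along 0 in MS mice, with a median of -0.03 for the lower and -0.04 for the higher genes.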

How the data were processed

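RNA of 48 amygdala samples, 8 in each of 6 groups, was sequenced for the authors by an outside company as read pairs of 125 bases from stranded total RNA libraries. The submitters' processing notes name STAR, HTSeq, DESeq2 and the build GRCm38.p5, with no versions, and the strand setting is not given in the sources used here. The deposited values are raw counts on Ensembl genes that the authors left unnormalized.

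Here 5 special entries, *Lars2* and Gm42418 were left out, and genes with a mean of at least 10 counts over the 16 libraries were kept. Counts of all 48 libraries were normalized with TMM and fitted by group with the quasi-likelihood test of edgeR 4.0.16 (R 4.3.3), and p-values were adjusted by Benjamini-Hochberg over all genes tested. DESeq2 1.42.0 was an alternative. The code was tested on simulated data. Exact permutation tests used the mean log2 CPM. Genes were placed with GENCODE M21 on GRCm38, which holds 48058 of the genes, and 22 tested genes had no entry. G+C content was taken from the longest transcript.

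Named were the 14 higher and 14 lower DEGs with the smallest p, DEGs in or opposite to 19 gene lists, and DEGs within 10 Mb of *Tph2*; others are marked as chosen later. The members and lists were chosen with earlier results of these data known. Replicate numbers were used as a block only as an alternative. Values after ± are SE of the fit. The p-values of the fit set a difference between groups against the spread between mice, estimated over all 48 libraries. The paper describes littermates of different genotypes, but the sample labels name no litter. Each mouse was therefore treated as independent, and an effect of litter was not tested.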

Additional observations from a re-analysis of the deposited data

Results flagged for a closer look

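Of 86 groups of 8 libraries, for 43 named genes, 8 held a library that stood far from the 7 others. Chance alone marks about 1 in 20 groups. *Parpbp* stood out at 911 CPM in *Tph2*-/- C replicate 7 (group median 9.30) and at 53.7 CPM in *Tph2*+/- C replicate 5 (median 7.15). *Zrsr1* had 34.3 CPM in *Tph2*-/- C replicate 2, *Elp5* had 61.8 CPM in *Tph2*-/- C replicate 5 and Gm35065 had 14.9 CPM in *Tph2*-/- C replicate 4, each the highest of its group. A830082K12Rik had 312 CPM in *Tph2*+/- C replicate 4. Dlx6os2 had 33.1 CPM in *Tph2*+/- C replicate 7 and 34.3 CPM in *Tph2*-/- C replicate 4.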

How the results depend on the processing

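The count of lower DEGs stayed within 1.5 times of 135 under 10 alternatives, from 115 with the G+C offset, added after seeing the data, to 144 with the filterByExpr filter. Without the 5 mice of the late number range it was 30 (18 higher). Leaving out 1 library gave 64 to 171 lower and 13 to 26 higher DEGs, with 64 without *Tph2*+/- C replicate 7, 72 lower and 13 higher without replicate 4, and 88 lower and 13 higher without replicate 6. The higher DEGs numbered 46 with only the 16 libraries fitted and 40 with the animal number range as a covariate, and the share of lower calls was then 73.9% and 76.6%. With every gene of at least 1 count (32233 genes) there were 351 lower and 198 higher DEGs. This edgeR fit gave 143 genes with an adjusted p below 0.05 and 9 named genes with an interaction below 0.05. An earlier fit of these data to every gene with 1 count gave standard errors several times too small for genes with good counts. It was therefore kept as an alternative only, and the cause was not tested. In the other settings 0 genes had an adjusted p below 0.05. Replicate numbers did not pair the mice, with correlations of same-numbered mice from -0.15 to 0.17. Only 1 of 8 *Tph2*+/- C mice correlated best with the *Tph2*-/- C mouse of its own number. A replicate block gave 121 lower and 41 higher DEGs (74.7% lower). The lg2FC of *Parpbp* reversed to -0.40 in DESeq2, to -0.85 without the 5 mice and to -0.25 without *Tph2*-/- C replicate 7, and was at most 4.26 with 1 library left out. Of 1247 re-estimates of the named genes, 1099 kept direction and call, 145 kept direction and missed the DEG rule, and 3 reversed. Of the control DEGs, 95 to 104 kept their sign in MS mice (98 in the fit reported). Both DEGs near *Tph2* also lay within 5 Mb. Genes with a mean under 10 counts, most 5-HT genes among them, entered only the fits with other filters.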

Other observations

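Outside the DEGs, 6 genes had an absolute lg2FC above 1 in control mice. They included mt-Rnr2, a mitochondrial ribosomal RNA, with a lg2FC of -1.90 ± 0.87, Gm15564 with -1.76 ± 0.74 and Mir6236 with -2.04 ± 0.99, with adjusted p of 0.557, 0.468 and 0.623 in edgeR. In MS mice their lg2FC was 0.11, 0.07 and 0.06.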
